A study of Homo sapiens with 2 samples.

Results

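The circadian clock genes described here are 10 genes of the 19607 in the deposited expression table, chosen by their symbols: CLOCK, ARNTL, PER1, PER2, PER3, CRY1, CRY2, NR1D1, NR1D2 and DBP. They were measured by RNA sequencing in CWR22rv1, a human prostate cancer (CaP) cell line. One condition was cells with Akt1 and Akt2 knocked out by CRISPR/Cas9 (Akt1/2 DKO) and the other was control cells of wild type genotype, with 1 library each. Per the paper, guides against exon 3 of both genes were used, single clones were isolated after puromycin selection, and cells were grown with serum. Which clone was sequenced is not in the labels. Whether the control cells had also passed through cloning, when the cells were collected and whether their clocks had been synchronised are not given in the sources used here. With 1 library per condition, an effect of the knockout, a difference between a clone and the control cells, and a difference in clock phase or time of collection cannot be told apart.

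In the clock of mammalian cells, CLOCK and ARNTL (also called BMAL1) bind E-box sequences as a pair and switch on PER, CRY, NR1D1, NR1D2 and DBP. PER and CRY proteins accumulate, join and shut off CLOCK and ARNTL, which closes the loop within about a day. In a second loop the REV-ERB receptors, encoded by NR1D1 and NR1D2, repress ARNTL at elements that the ROR receptors bind as activators, and DBP drives genes that carry D-box sequences. In serum-grown cultures that were not synchronised, individual cells run at different phases, so a bulk level is an average over phases. In such bulk samples, fewer cells that express a gene and less RNA per cell cannot be told apart.

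Of the 10 clock genes, PER3, ARNTL and CRY1 (3 of 10) exceeded the control level by 1.5-fold or more in Akt1/2 DKO, and 0 were lower by that much. Genes were tested where the reads of both libraries summed to 10 or more, which 13318 did. Of these, 30.9% passed 1.5-fold, 15.9% being higher and 15.0% lower, so the share of clock genes past 1.5-fold (30%) lay near the background. The median log2 fold change of the clock genes was 0.34, beside 0.01 over all genes tested. All 10 passed the read filter, with summed reads of 82 to 1215. Among the 7043 genes with reads in that range, 29.5% passed 1.5-fold and the median was 0.02. The paralogs did not move as one: PER3, PER1 and CRY1 were higher, PER2 differed by less than counting error, and CRY2 and CLOCK were slightly lower. Fold changes are ratios of Akt1/2 DKO to control in reads scaled by the trimmed mean of M-values (TMM), which takes most genes as alike between libraries, and intervals are exact 95% intervals that cover counting error only. No difference has a replicate check, and no p-value is given.

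**Figure D1:**
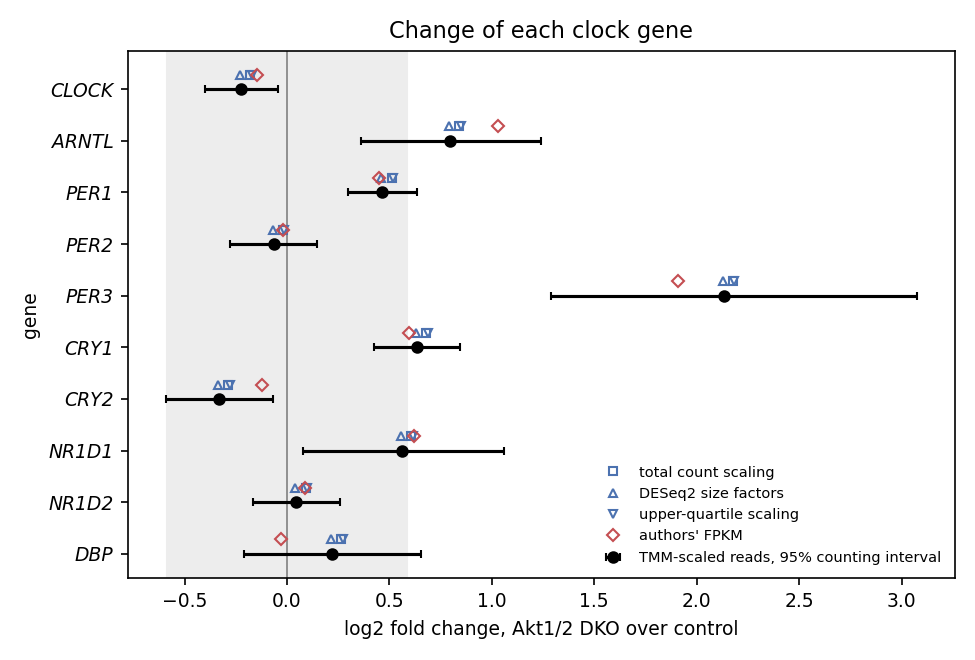
Log2 fold change of each clock gene (x axis, Akt1/2 DKO over control) by gene (y axis). Black points are TMM-scaled reads with 95% counting intervals, open symbols are other scalings and the deposited FPKM, and the grey band spans changes under 1.5-fold. PER3 lies farthest from 0 at 2.13, ARNTL and CRY1 lie past the band under each scaling drawn, and NR1D1 sits at its edge.

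Short promoter windows from RefSeq (GRCh38.p14), each 300 bases long, show where exact copies of a few elements lie beside the starts of these genes. All 10 genes matched, ARNTL under its RefSeq symbol BMAL1, with 15 windows because some genes have more than 1 start. The windows were searched on both strands for the E-box (CACGTG), the D-box (TTATGTAA and TTACGTAA), the AGGTCA core that REV-ERB and ROR receptors bind, the cAMP response element (TGACGTCA) and the FOXO site (GTAAACA), the last because FOXO factors are substrates of Akt. Only these letters were searched, and other variants of the elements were not. No match overlapped another in the windows printed. Capitals mark the matches, and the position of a match counts from the gene start (negative before it) to the first base of the match. The windows of ARNTL and CRY1 are shown because these genes had the largest changes among those with at least 100 reads. Those of PER3, PER2, NR1D2 and PER1 were added after the values were seen, since they hold D-boxes or E-boxes.
ARNTL, chr11:13277540-13277839, plus strand, AGGTCA at 31:
ARNTL: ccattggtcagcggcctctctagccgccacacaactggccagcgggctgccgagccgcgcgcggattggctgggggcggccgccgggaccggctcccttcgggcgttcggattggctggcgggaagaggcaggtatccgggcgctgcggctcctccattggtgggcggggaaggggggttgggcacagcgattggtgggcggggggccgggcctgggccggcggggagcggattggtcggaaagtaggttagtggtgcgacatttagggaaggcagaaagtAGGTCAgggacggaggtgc
CRY1, chr12:107093500-107093799, minus strand, FOXO site at -105:
CRY1: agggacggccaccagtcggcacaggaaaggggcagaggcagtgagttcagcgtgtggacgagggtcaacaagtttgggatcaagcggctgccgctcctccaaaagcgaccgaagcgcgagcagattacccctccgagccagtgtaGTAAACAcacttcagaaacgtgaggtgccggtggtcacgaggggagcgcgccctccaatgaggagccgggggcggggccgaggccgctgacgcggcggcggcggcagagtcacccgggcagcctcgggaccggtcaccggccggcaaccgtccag
PER3, chr1:7784041-7784340, plus strand, D-box at -177:
PER3: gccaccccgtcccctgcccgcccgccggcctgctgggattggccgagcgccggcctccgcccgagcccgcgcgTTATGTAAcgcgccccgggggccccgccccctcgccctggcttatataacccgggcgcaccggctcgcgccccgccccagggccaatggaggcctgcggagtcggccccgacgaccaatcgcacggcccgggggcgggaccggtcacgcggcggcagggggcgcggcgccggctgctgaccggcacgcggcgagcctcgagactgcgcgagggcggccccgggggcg
PER2, chr2:238288561-238288860, minus strand, D-box at -3:
PER2: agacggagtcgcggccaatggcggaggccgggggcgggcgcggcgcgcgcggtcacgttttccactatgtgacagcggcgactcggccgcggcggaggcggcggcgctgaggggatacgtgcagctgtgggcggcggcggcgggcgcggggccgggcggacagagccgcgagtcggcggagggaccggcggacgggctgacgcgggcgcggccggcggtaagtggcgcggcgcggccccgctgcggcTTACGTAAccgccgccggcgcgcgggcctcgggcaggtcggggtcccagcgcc
NR1D2, chr3:23945871-23946170, plus strand, D-box, on the other strand, at -194 and E-boxes at -155 and -105:
NR1D2: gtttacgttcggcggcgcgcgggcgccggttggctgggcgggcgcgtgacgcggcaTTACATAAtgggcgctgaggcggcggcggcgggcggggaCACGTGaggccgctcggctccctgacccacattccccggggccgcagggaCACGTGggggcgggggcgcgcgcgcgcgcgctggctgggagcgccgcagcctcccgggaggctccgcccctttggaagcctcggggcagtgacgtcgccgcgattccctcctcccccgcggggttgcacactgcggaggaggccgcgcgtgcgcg
PER1, chr17:8152355-8152654, minus strand, E-box at -173 and AGGTCA, on the other strand, at -144:
PER1: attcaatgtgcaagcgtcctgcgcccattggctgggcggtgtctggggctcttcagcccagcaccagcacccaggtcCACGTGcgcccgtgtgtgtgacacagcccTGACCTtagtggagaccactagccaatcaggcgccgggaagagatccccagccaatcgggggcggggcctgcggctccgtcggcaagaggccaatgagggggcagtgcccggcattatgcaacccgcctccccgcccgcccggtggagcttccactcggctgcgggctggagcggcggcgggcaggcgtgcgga

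A D-box was found in 3 of the 15 clock gene windows (20%), against 1.01% of all 35116 promoter windows. An E-box was found in 2 windows (13.3%), against 7.26% of all windows. AGGTCA was found in 4 windows (26.7%), those of ARNTL and PER1 and both of CRY2, against 13.8% of all windows. The FOXO site was in 1 window, that of CRY1 (6.67%), against 3.42% of all windows, and the cAMP response element was in 0 windows, against 1.85%. The D-box genes were spread over the range of change, with PER3 4.38-fold higher and PER2 and NR1D2 both within counting error of no change. A match says only that the letters are there, and a window without one says nothing of the factor.

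The targeted genes checked the labels. AKT1 had 2645 reads in control and 591 in Akt1/2 DKO, and AKT2 had 2362 and 667, which are log2 fold changes of -2.31 and -1.97. Library totals were 9970820 estimated reads in control and 10718650 in Akt1/2 DKO. All 7 luminal prostate markers were detected. Of these 3 were at least 1.5-fold higher in Akt1/2 DKO and 2 lower (71.4% together), against 30.9% of all genes tested. The leukocyte and endothelial markers had at most 10 reads each. The 5 fibroblast markers summed to 52.2 FPKM in control and 7.35 in Akt1/2 DKO, mostly through VIM with 897 and 84 reads. Of the 3 with enough reads 2 were lower and 1 higher, and their part in the clock gene values was not tested.

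Levels between genes were compared in FPKM, a fragment count set against transcript length and library size, as deposited. In control cells PER1 had the highest level of the clock genes at 16.4 FPKM (95% counting interval 14.9 to 17.9) and PER3 the lowest at 0.28 FPKM (0.15 to 0.47). Between them came CRY1 at 10 FPKM, DBP at 8.16, CLOCK at 8.04, CRY2 at 6.79, NR1D2 at 6.67, PER2 at 5.49, ARNTL at 2.51 and NR1D1 at 2.07. Each neighbouring pair from CRY1 down to PER2 had overlapping intervals, and so did ARNTL and NR1D1, so those steps in the order were not resolved by counting. In Akt1/2 DKO cells the order was nearly the same, from PER1 at 22.4 FPKM (20.8 to 24.0) and CRY1 at 15.1 (13.8 to 16.5) down to NR1D1 at 3.18 and PER3 at 1.05 (0.82 to 1.33). CRY2 and NR1D2 exchanged ranks there, with overlapping intervals. ARNTL, at 5.13 FPKM, no longer stood apart from PER2 at 5.41, whereas in control the interval of ARNTL lay wholly below that of PER2.

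Of the activators, ARNTL was higher in Akt1/2 DKO while its partner CLOCK was slightly lower. ARNTL (ENSG00000133794, chromosome 11 from 13276652 to 13387266), a partner with which CLOCK binds E-boxes, had 68 reads in control and 131 in Akt1/2 DKO, 1.74-fold higher (1.29 to 2.36). In FPKM its ratio was 2.04. CLOCK (ENSG00000134852, chromosome 4 from 55427903 to 55547138) had 534 and 507 reads, a log2 fold change of -0.22 (-0.40 to -0.05). In TMM-scaled reads its interval thus left out no change, at a size short of 1.5-fold. With upper-quartile scaling the value for CLOCK was -0.17. Its FPKM intervals overlapped, at 7.37 to 8.75 in control and 6.65 to 7.93 in Akt1/2 DKO. The ratio of ARNTL reads to CLOCK reads, which needs no scaling between libraries, went from 0.13 in control to 0.26 in Akt1/2 DKO, a change of 2.03-fold (1.46 to 2.83). Per length, ARNTL stood at 0.31 of the level of CLOCK in control and 0.71 in Akt1/2 DKO.

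Both activators have a paralog that can take their place, and both paralogs were higher. ARNTL2, which pairs with CLOCK as ARNTL does, had 47 and 232 reads, 4.45-fold higher (3.24 to 6.23). ARNTL2 held 40.9% of the reads of ARNTL and ARNTL2 in control (exact 95% interval 31.8 to 50.4%) and 63.9% in Akt1/2 DKO (58.7 to 68.9%), so the intervals did not overlap. NPAS2, the paralog of CLOCK, had 107 and 176 reads, 1.48-fold higher (1.16 to 1.90), just short of 1.5-fold, and 2.21-fold higher in FPKM. Its share of the CLOCK and NPAS2 reads went from 16.7% (13.9 to 19.8%) to 25.8% (22.5 to 29.2%).

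Among the period genes, whose proteins form the repressor with the cryptochromes, PER3 differed most and PER2 least. PER3 (ENSG00000049246, chromosome 1 from 7784320 to 7845177) had 14 reads in control and 68 in Akt1/2 DKO, 4.38-fold higher (2.44 to 8.43), and 96.1% of all genes tested had a lower log2 fold change. In TMM-scaled reads it was the only clock gene past 2-fold, 1 of 10, against 18.0% of all genes tested, while in FPKM the ratio of ARNTL, 2.04, was past 2-fold too. Its few control reads leave a wide interval. The antisense gene UTS2 shares 868 of the 8099 exonic bases of PER3 and had 2 and 0 reads in these libraries.

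PER1 (ENSG00000179094, chromosome 17 from 8140472 to 8156506), the period gene that serum, cyclic AMP and glucocorticoids induce within minutes to hours, had 480 and 735 reads. It was 1.38-fold higher (1.23 to 1.55), above counting error and short of 1.5-fold. PER2 (ENSG00000132326, chromosome 2 from 238244038 to 238290102) had 352 and 373 reads, a log2 fold change of -0.07 (-0.28 to 0.15), which this depth could not tell from no change. Within the family PER1 held 56.7% of the reads in control and 62.5% in Akt1/2 DKO, PER2 41.6% and 31.7%, and PER3 1.65% (0.91 to 2.76%) and 5.78% (4.52 to 7.27%). The ratio of PER1 to PER2 reads changed 1.45-fold (1.19 to 1.75) and that of PER3 to PER2 reads 4.58-fold (2.49 to 8.98).

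Since PER1 is also an acutely induced gene, 12 immediate-early genes and 4 genes that steroid receptors induce are given beside it. Of the immediate-early genes 4 were at least 1.5-fold higher and 2 lower in Akt1/2 DKO (50% together). Over all genes tested 15.9% were higher and 15.0% lower by that much (30.9% together). The summed level of the immediate-early genes was 162 FPKM in control and 238 in Akt1/2 DKO. Those past 1.5-fold went both ways: NR4A1 had 59 and 571 reads and EGR1 had 571 and 167. Of the 4 steroid-induced genes 1 was higher and 1 lower (50% together, against the same 30.9%), with a summed level of 127 and 103 FPKM. Their part in the PER1 value was not tested.

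The cryptochromes, which carry most of the repressor activity in the PER and CRY complex, went in opposite directions. CRY1 (ENSG00000008405, chromosome 12 from 106991364 to 107093829) had 294 reads in control and 506 in Akt1/2 DKO, 1.55-fold higher (1.34 to 1.80). CRY2 (ENSG00000121671, chromosome 11 from 45847118 to 45883248) had 262 and 231 reads, a log2 fold change of -0.33 (-0.59 to -0.07). In FPKM the value for CRY2 was -0.12. CRY1 held 52.9% of the cryptochrome reads in control (48.6 to 57.1%) and 68.7% in Akt1/2 DKO (65.2 to 72%), and the ratio of CRY1 to CRY2 reads went from 1.12 to 2.19, a change of 1.95-fold (1.54 to 2.47).

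Of the REV-ERB receptor genes, NR1D1 was near the 1.5-fold threshold and NR1D2 was within counting error of no change. NR1D1 (ENSG00000126368, chromosome 17 from 40092787 to 40100725) had 58 and 95 reads, 1.48-fold higher (1.05 to 2.08), just short of 1.5-fold. With total count scaling, upper-quartile scaling or the deposited FPKM its log2 fold change was 0.61, 0.62 and 0.62, past the threshold of 1.5-fold. THRA, on the opposite strand, shares 263 of the 2772 exonic bases of NR1D1 and had 355 and 441 reads. Whether the counting used strand is not given in the sources used here, and the deposited control value of NR1D1, 57.6, is not a whole number. Nor are those of PER3 in control (13.7) and of DBP in control (81.7) and Akt1/2 DKO (105.6). NR1D2 (ENSG00000174738, chromosome 3 from 23945260 to 23980618) had 352 and 403 reads, a log2 fold change of 0.05 (-0.16 to 0.26). The 754 tested genes of chromosome 3 had a median log2 fold change of -0.54, while medians of the other chromosomes with at least 100 tested genes lay between -0.20 and 0.10, so NR1D2 lay 0.59 above the median of its chromosome.

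DBP (ENSG00000105516, chromosome 19 from 48630030 to 48637438), the output factor that binds D-boxes and a direct target of CLOCK and ARNTL, had 82 and 106 reads. Its fold change was 1.17 (0.87 to 1.58), which counting error could not tell from 1, and in FPKM it stood at 8.16 and 8.01. SPHK2, on the opposite strand, shares 661 of its 6544 exonic bases and had 248 and 289 reads. In TMM-scaled reads, 7 of the 10 clock genes had an interval that did not include no change, 5 of them higher (ARNTL, PER1, PER3, CRY1 and NR1D1) and CLOCK and CRY2 lower. Of the 39 other clock-system genes tested, described below, 26 had such an interval. The share of all genes tested with one was not computed, so neither count has a background. Where a change of 1.5-fold was also asked for, 3 of 10 (30%) passed, against 27.0% of all genes tested.

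**Figure D2:**
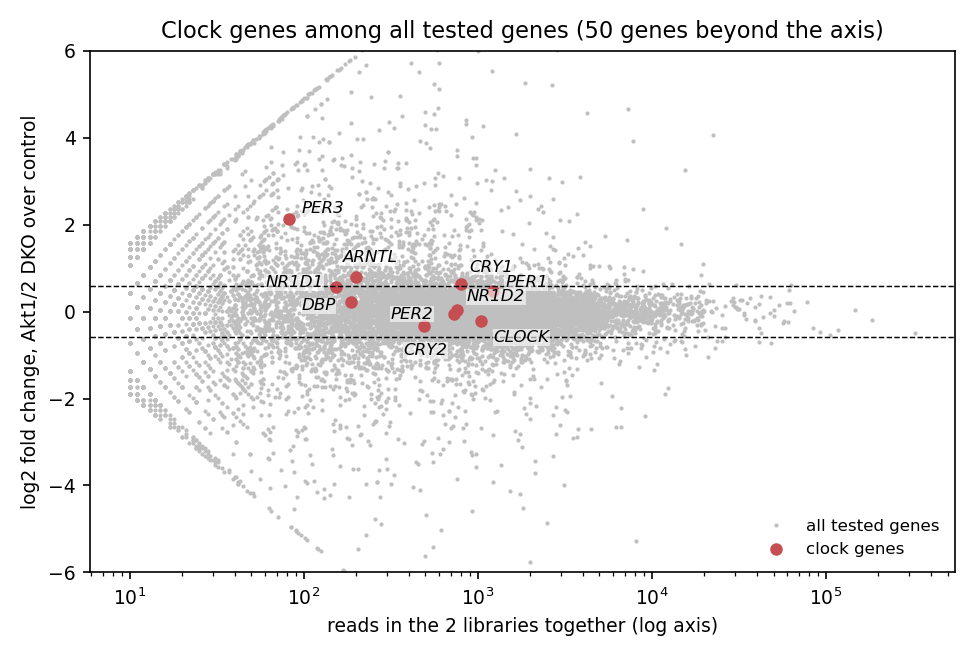
Log2 fold change (y axis, Akt1/2 DKO over control) against reads in the 2 libraries together (x axis, log axis) for the 13318 tested genes (grey) and the 10 clock genes (red). Dashed lines mark 1.5-fold, 50 genes lie beyond the axis, and of the clock genes PER3, ARNTL and CRY1 lie above the upper line and none below the lower one.

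Of 42 other genes of the clock system, listed by role, 41 were found in the table and 39 passed the read filter. Of these 8 were at least 1.5-fold higher and 5 at least 1.5-fold lower (33.3% together), again near the 30.9% of all genes tested. With upper-quartile scaling 9 were higher and 2 lower, and with total count scaling 9 and 3. The median log2 fold change of the 39 was -0.05. Of the 8 higher genes 7 were transcription factors or repressors of the loops, and of the 5 lower genes 3 were output genes.

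Of the ROR receptors, which activate ARNTL at the elements that the REV-ERB receptors repress, RORB had 247 reads in control and 488 in Akt1/2 DKO, 1.78-fold higher (1.53 to 2.09). Its FPKM values were 2.58 and 4.81, below those of NR1D2, at 6.67 and 7.10, in both libraries. The ratio of RORB to NR1D2 reads went from 0.70 to 1.21, a change of 1.73-fold (1.39 to 2.14). RORA, with 2 and 1 reads, was not tested.

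Of the other clock transcription factors and repressors, 4 of 5 tested were at least 1.5-fold higher, against 15.9% of all genes tested. Of the 5, 3 had an interval that did not include no change, a count that also has no background. CIART, a repressor of CLOCK and ARNTL, had 31 and 130 reads, 3.78-fold higher (2.54 to 5.79). The other 3 had under 100 reads and are named after their values were seen. BHLHE41, which represses E-box genes, had 1 and 43 reads, a ratio of 38.8 with an interval from 6.6 to 1567. HLF, a relative of DBP, had 3 and 17 reads, a ratio of 5.11 (1.48 to 27.2). NFIL3, which represses at D-boxes, had 33 and 55 reads, 1.5-fold higher (0.96 to 2.39), its interval included no change, and with DESeq2 size factors its log2 fold change was 0.58, short of 1.5-fold. TEF, also a relative of DBP, had 100 and 95 reads, while its FPKM values were 4.13 and 2.

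**Figure D3:**
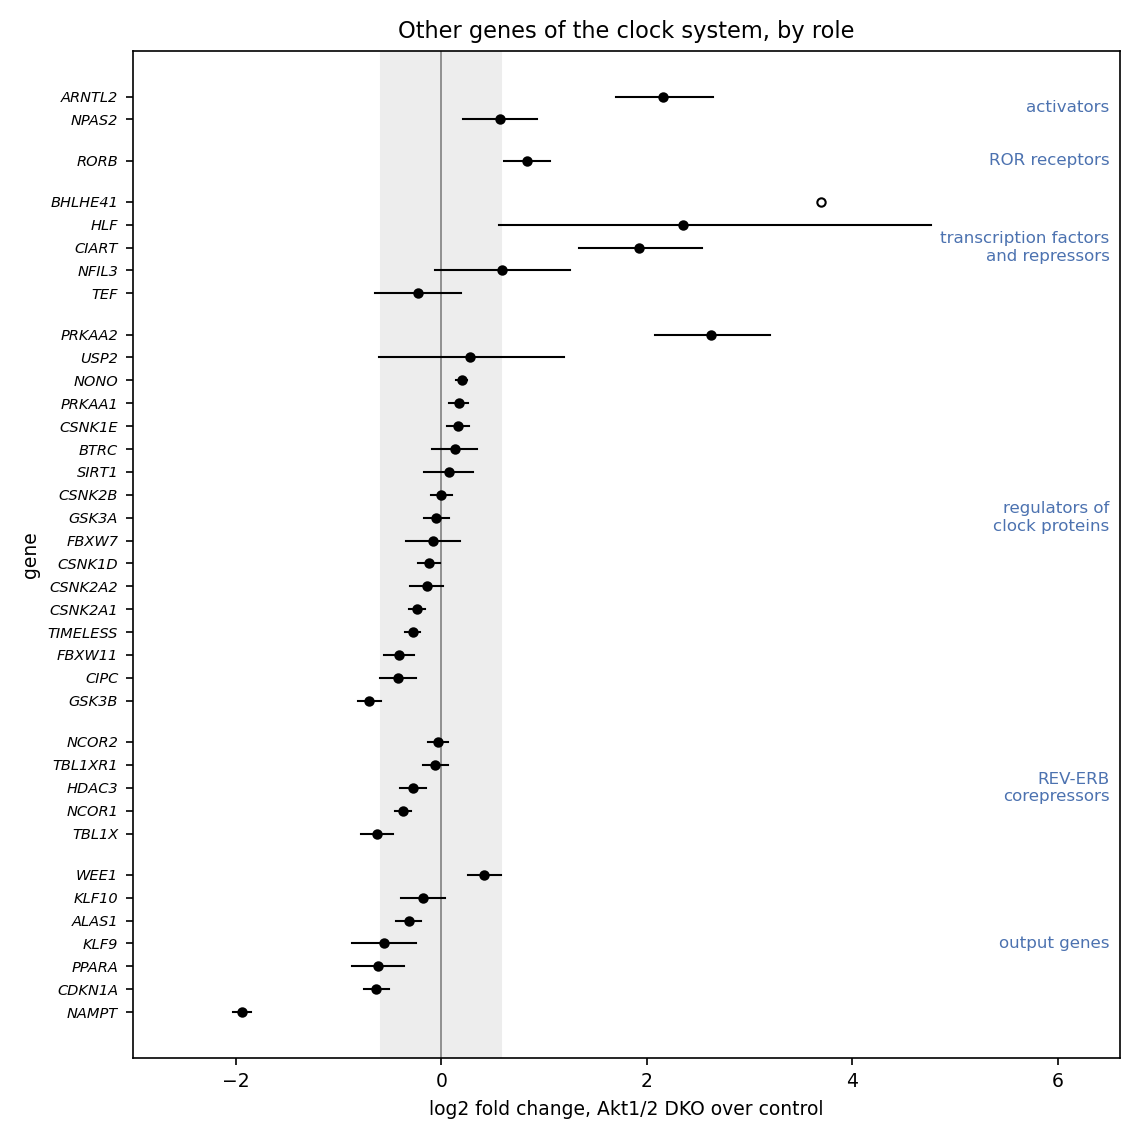
Log2 fold change (x axis, Akt1/2 DKO over control) of 37 tested genes of the clock system outside the 10 members (y axis), grouped by role, with 95% counting intervals as bars. The grey band spans changes under 1.5-fold and the open circle is BHLHE41, whose 1 control read was set to the floor of 3 reads. RORB and ARNTL2 lie right of the band, most regulators of clock proteins lie within it, and NAMPT lies farthest to the left.

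Of 18 tested regulators of clock proteins, 2 (11.1%) were past 1.5-fold, against 30.9% of all genes tested, and 16 were within it. Among those 16 were the kinase genes CSNK1D (1530 and 1562 reads) and CSNK1E (1286 and 1596), whose products phosphorylate PER proteins. The exceptions were PRKAA2, a catalytic subunit of the AMP-activated kinase, with 32 and 218 reads, 6.14-fold higher (4.23 to 9.21), and GSK3B, a kinase that Akt inhibits and that phosphorylates clock proteins, with 1715 and 1172 reads, 1.62-fold lower (1.51 to 1.75). GSK3B is also on chromosome 3, and its log2 fold change of -0.70 stood beside the median of -0.54 there. In FPKM the value for GSK3B was -0.51, short of 1.5-fold.

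The 5 genes of the REV-ERB corepressor complex were close to no change or below it, from -0.63 to -0.03 on the log2 scale. TBL1X, a subunit of that complex, had 806 and 579 reads, 1.54-fold lower (1.39 to 1.72), and HDAC3, its deacetylase, had 1021 and 937. With total count or upper-quartile scaling the log2 fold change of TBL1X was -0.58 and -0.57, short of 1.5-fold.

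Of 7 genes that the clock commonly drives, 3 were at least 1.5-fold lower and 0 higher in Akt1/2 DKO, where 15.0% of all genes tested were lower and 15.9% higher by that much, and 2 of the 3 (CDKN1A and PPARA) fell short of it under other scalings. NAMPT, the rate-limiting enzyme of NAD salvage, had 4587 and 1327 reads, 3.83-fold lower (3.60 to 4.08). CDKN1A, the cell cycle inhibitor p21, had 1273 and 911, 1.55-fold lower (1.42 to 1.69), and PPARA, a nuclear receptor of fatty acid catabolism, had 306 and 222, 1.53-fold lower (1.28 to 1.82). By quantitative PCR, whose data are not shown, the paper reports no significant change in p21. With upper-quartile scaling CDKN1A, at -0.58 on the log2 scale, and PPARA, at -0.56, fell short of 1.5-fold, and PPARA did so with total counts (-0.57) and FPKM (-0.41) too. WEE1, a mitotic kinase gene with E-boxes, had 538 and 796 reads, 1.34-fold higher. In the pathway annotation that the authors deposited with the table, 27 genes of the circadian rhythm pathway were tested, 8 of the 10 clock genes among them, and 7 were at least 1.5-fold higher and 0 lower. That is 25.9% past 1.5-fold, all of them higher, where 15.9% of all genes tested were higher and 30.9% were past 1.5-fold in either direction. ARNTL, PER3 and CRY1, already counted above, are among the 7.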

How the data were processed

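RNA of 1 Akt1/2 DKO library and 1 control library of CWR22rv1 cells was analysed. The submitters' processing notes name fastp 0.20.0, TopHat, Cufflinks, edgeR and the build GRCh38.p10. The counting tool and strand setting are not given in the sources used here. The values that the authors deposited are estimated counts, not normalized and fractional in 11.1% of genes, and FPKM. Their own fold changes, p-values, ontology summary and correlation were not used. After rounding to whole numbers, genes whose reads summed to 10 or more over both libraries were kept (13318 of 19607), and TMM in edgeR 4.0.16 (R 4.3.3) set the size ratio of Akt1/2 DKO to control at 1.11. Upper-quartile and DESeq2 1.42.0 size factors, total counts, FPKM, other read filters, a prior count of 1 read, a 2-fold threshold and a call that also asks for an interval without 1 were alternatives.

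With 1 library per condition edgeR's test has no estimate of spread, so none was run. Intervals (Clopper-Pearson, and exact conditional intervals for ratios of ratios, scipy 1.17.1) cover counting error only. A library under 3 reads (0.30 and 0.28 CPM) was set to 3 reads for calls. Steps were tested on simulated data with counting error only and few genes changed. That check does not cover scaling where as many genes differ as here. The members and lists were chosen with earlier results of these data known. The genes named are the members, AKT1, AKT2, overlapping genes, and, per list, those past 1.5-fold with at least 100 reads. Others, the read ratios, and the annotated pathway were chosen after values were seen. Positions are those of GENCODE release 29 (GRCh38), in which 19571 identifiers were found, and promoter windows those of RefSeq. FBXL21 was not analysed here, and some genes of the lists are counted but not reported singly.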

Additional observations from a re-analysis of the deposited data

How the results depend on the processing

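A 2-fold threshold left 1 of the 10 clock genes (PER3), 7 of the 39 other clock-system genes and 2391 of all genes tested, because it asks for a larger difference. Under the other scalings, read filters, FPKM and the rule that the interval exclude no change, these counts stayed within 1.5 times of 3, 13 and 4117. ARNTL, PER3 and CRY1 were past 1.5-fold in each of 7 alternative settings, with log2 fold changes from 0.77 to 1.03, 1.91 to 2.18 and 0.60 to 0.69. NR1D1 (0.54 to 0.62) was past it in 3 of 7. The sign of DBP turned with FPKM (-0.03), inside its counting interval. TMM without chromosome 3 and unrounded counts were chosen after seeing the data. Depth limits PER3, with 14 control reads, and DBP. No replicate could be left out. No paired analysis was possible because there is only 1 Akt1/2 DKO and 1 control library, with no replicate numbers.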
